A study of Mus musculus with 18 samples.

Results

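The constitutive proteasome subunits are the genes whose products build the standard 26S proteasome, and they were taken by symbol as Psma1 to Psma7, Psmb1 to Psmb7, Psmc1 to Psmc6 and Psmd1 to Psmd14. Of these 34 symbols, 33 were matched with a probe set among the 19505 genes of the arrays, each with a single probe set, and Psmb5 was not analysed here. Each of 18 mice gave 1 array of RNA from a marrow preparation that the labels name mesenchymal stromal cells. The cells came from femurs and tibias and were obtained by removing blood cells with antibody-coated magnetic beads. The groups were 5 BALB/c control mice and 5 NeuT mice of 12 weeks of age, and 4 BALB/c control mice and 4 NeuT mice of 24 weeks. NeuT mice carry an activated rat Erbb2 (neu) transgene, which in the strain usually given this name is driven by a mouse mammary tumour virus promoter, and they develop mammary tumours. The labels describe the younger NeuT mice as being at an early stage of tumorigenesis and describe both NeuT groups as tumour-bearing, so the transgene and the tumours cannot be told apart, and age cannot be told apart from any processing batch of the younger and older mice.

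The proteasome is the protease that degrades proteins marked with ubiquitin in every nucleated cell. Its barrel-shaped core particle has outer rings of alpha subunits, which gate the entry, and inner rings of beta subunits, of which some carry the proteolytic sites. A regulatory particle docks on the alpha ring: its base holds a ring of ATPases that unfold substrates and non-ATPase subunits that bind ubiquitin and shuttle proteins, and its lid removes the ubiquitin chain. Subunit genes are known to be transcribed together in proportion to demand, in part through the factor Nfe2l1, which binds antioxidant response elements in their promoters. In cells exposed to interferon, and constitutively in many blood cells, the catalytic subunits Psmb6, Psmb7 and Psmb5 are replaced by Psmb9, Psmb10 and Psmb8 to form the immunoproteasome.

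Because this control acts through promoters, the promoter windows of the members were read from RefSeq (GRCm38.p6, 250 bases before to 50 after the transcription start). A window was matched for 27 of the 33 measured members, 29 windows in all. The core of the antioxidant response element, TGACNNNGC on either strand, was in 4 of the 29 windows (13.8%), against 12.4% of all 32851 windows of this length. The lines below show that core in capitals with the bases around it, 9 bases before the start for Psmb6 (chr11:70525328-70525376, plus strand), 227 for Psmc6 (chr14:45329577-45329625, plus strand), 247 for Psmd12 (chr11:107479278-107479309, plus strand) and 31 for Psmd9 (chr5:123228139-123228187, plus strand).
Psmb6: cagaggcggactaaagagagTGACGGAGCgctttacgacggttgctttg
Psmc6: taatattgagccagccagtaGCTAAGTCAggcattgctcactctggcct
Psmd12: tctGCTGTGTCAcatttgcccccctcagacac
Psmd9: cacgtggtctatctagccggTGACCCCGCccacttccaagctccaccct
In Psmb6 and Psmd9 the core reads in the direction of transcription, and in Psmc6 and Psmd12 on the opposite strand. CCAAT, searched on both strands, was in 11 of the 29 windows (37.9%) and in 37.4% of all windows. The heat shock element core GAANNTTC was in none of the 29 and in 7.86% of all windows. The members' share therefore lay near that of all promoters for the first 2 motifs, and a match of these letters is not a site of binding. Psma7, the member that passed the test below, has 1 CCAAT, shown in capitals 196 bases before its start in the window chr2:180042415-180042714 (minus strand).
Psma7: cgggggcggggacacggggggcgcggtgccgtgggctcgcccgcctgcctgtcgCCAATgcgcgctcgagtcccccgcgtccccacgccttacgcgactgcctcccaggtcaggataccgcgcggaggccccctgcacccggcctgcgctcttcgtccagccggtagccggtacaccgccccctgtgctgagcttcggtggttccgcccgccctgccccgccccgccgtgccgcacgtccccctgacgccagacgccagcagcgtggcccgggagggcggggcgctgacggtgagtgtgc

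Array medians ran from 8.43 to 8.56 on the log2 scale over all genes, and correlations between arrays from 0.978 to 0.997 across genes. The lowest median correlations with the other arrays were those of replicate 4 of the NeuT 12-week mice (0.987), replicate 3 of the BALB/c 24-week mice (0.988) and replicate 1 of the NeuT 24-week mice (0.991). The table has no detection calls, and the median log2 signal of its negative controls was 7.35. The 33 members had mean log2 signals from 10.01 (Psmd14) to 12.95 (Psma5), all above that median, and 30 of them lay above the 95th percentile of the controls (10.46). Psmd14, Psmd5 (10.14) and Psmd13 (10.41) did not, so their differences come from signals within the range of the controls. The labelled cell type was checked with stromal markers, and 0 of 9 measured (among them Cxcl12, Lepr, Pdgfrb, Col1a1 and Col1a2) had a mean past that percentile, with 2 below the control median, beside 17.9% and 28.2% of all genes. Of the neutrophil precursor markers (Elane, Mpo, Prtn3, Ctsg and Ms4a3) 5 of 5 were above that percentile, as were 6 of 12 neutrophil, 6 of 9 B-cell, 3 of 5 erythroid, 2 of 8 monocyte and macrophage and 1 of 7 T and NK cell markers. The preparations thus held RNA of blood cells, and fewer cells of a type and less RNA per cell cannot be told apart in such bulk samples.

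At 12 weeks Psma7, an alpha ring subunit, was the member that passed the test between NeuT and BALB/c marrow cells. It rose 1.20-fold. Of the other 32 members 30 had differences above 0 and 2 below 0, none past the threshold. The median log2 difference over the 33 members was 0.12, against -0.025 over all genes. Signal strength moved with this: over the 4510 other genes whose mean signal lay in the members' range the median was 0.043, with 59.7% above 0, against 42.6% above 0 of all genes.

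The count of members called was 1 of 33 higher and 0 lower (limma, two-sided, Benjamini-Hochberg adjusted p under 0.05 over all genes), and 3.15% of all genes were called higher. In either direction 3.84% of all genes and 6.7% of the 4510 other genes in the members' signal range were called. At an unadjusted p under 0.05, 9 members were higher (11.6% of all genes) and Psmd9 was lower (9.41% of all genes). The 9 were Psma1, Psma3, Psma4, Psma5, Psma7, Psmb3, Psmb7, Psmd5 and Psmd10. The NeuT and BALB/c arrays did not overlap, with NeuT higher, for Psma3, Psma7 and Psmb4, which is 3 of 33 members beside 4.63% of all genes. Taken gene by gene, no member's 95% interval reached beyond a log2 difference of -0.31 (Psmd9) or 0.45 (Psmd10, 1.36-fold). These intervals are not joint over the 33 members and hold for the deposited scaling.

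**Figure D1:**
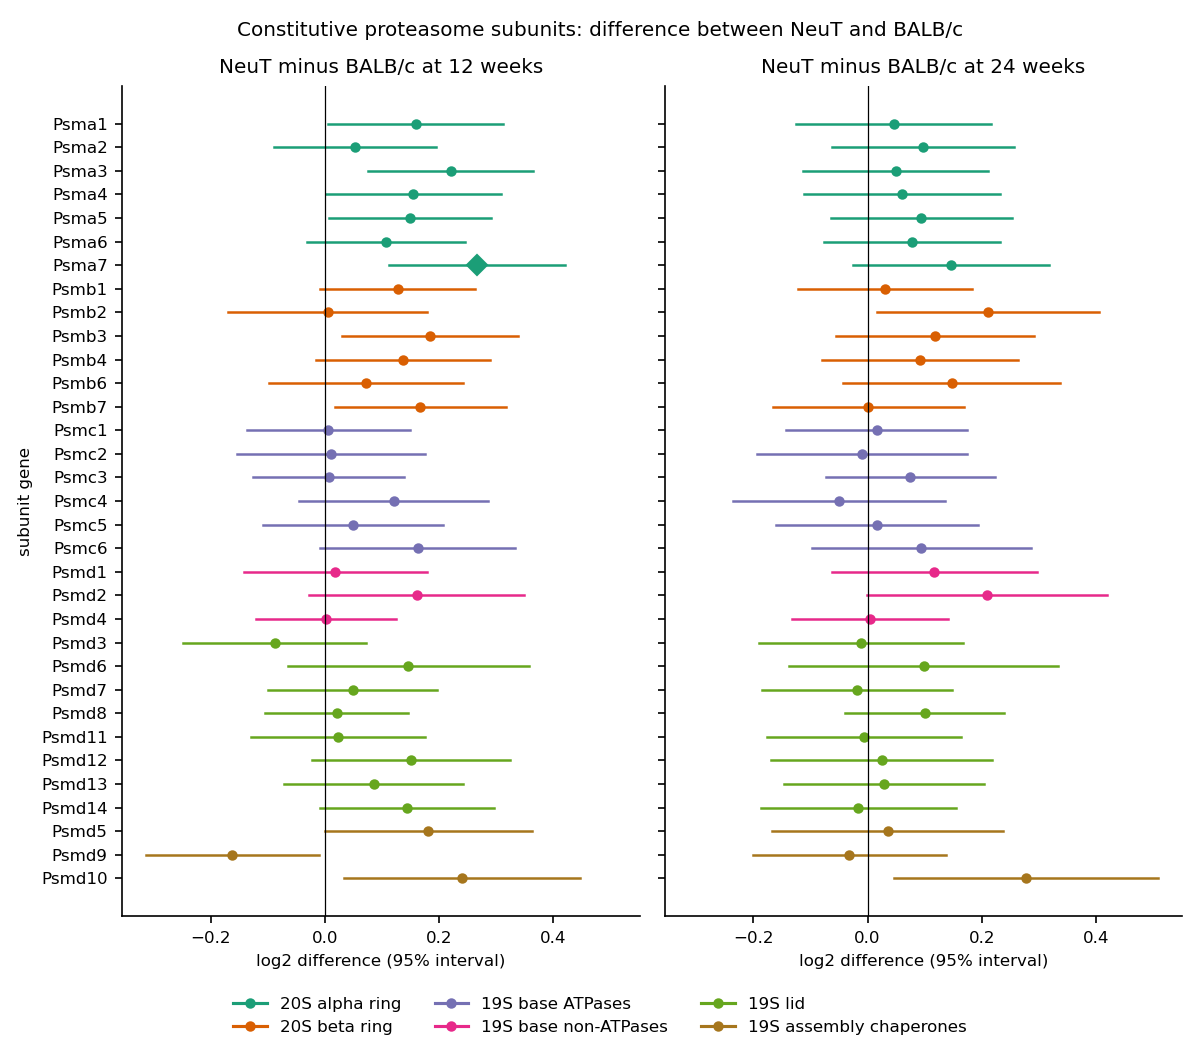
The log2 difference between NeuT and BALB/c mice of each of the 33 members (points) with its 95% interval from limma (lines), at 12 weeks (left) and 24 weeks (right), coloured by subcomplex; the diamond marks adjusted p under 0.05. At 12 weeks 31 of the 33 points lie above 0 and Psma7 is the diamond, and at 24 weeks 26 lie above 0 with no diamond.

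The alpha ring, whose subunits form the gate of the core particle, held the 1 member past the threshold and 4 of the other 8 members higher at an unadjusted p under 0.05 at 12 weeks. All 7 genes had differences above 0, from 0.053 (Psma2) to 0.27 (Psma7), with a median of 0.15. All 7 were also above 0 after the further quantile normalisation (median 0.11), after cyclic loess (0.11), with array weights (0.11) and in each fit without 1 mouse, and 6 were with the neutrophil and B-cell covariates (0.071). Psma7 read 12.22, 12.18, 12.35, 12.28 and 12.30 in the 5 BALB/c mice and 12.57, 12.46, 12.53, 12.69 and 12.41 in the 5 NeuT mice of 12 weeks. Every NeuT mouse of that age was above every BALB/c mouse. The log2 difference was 0.27 ± 0.074 (SE, n = 5 and 5, limma adjusted p = 0.0447). The same call held in 2 of the 10 fits that left out 1 mouse (those without BALB/c replicate 3 and NeuT replicate 5), with adjusted p from 0.0247 to 0.123.

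At 24 weeks Psma7 read 12.10, 12.46, 12.25 and 12.41 in the 4 BALB/c mice and 12.46, 12.40, 12.43 and 12.51 in the 4 NeuT mice. These groups overlapped, because BALB/c replicates 2 and 4 lay in the range of the NeuT mice. The log2 difference was 0.15 (limma adjusted p = 0.469), and the test of whether it differed from that at 12 weeks gave a difference of -0.12 (95% interval -0.35 to 0.11, limma adjusted p = 0.904). Psma3, the alpha subunit next in size, read 12.58, 12.41, 12.54, 12.64 and 12.65 in BALB/c and 12.85, 12.67, 12.74, 12.93 and 12.73 in NeuT mice of 12 weeks, again without overlap. Its log2 difference was 0.22 (limma adjusted p = 0.0751). The other alpha subunits had log2 differences of 0.16 (Psma1), 0.053 (Psma2), 0.15 (Psma4), 0.15 (Psma5) and 0.11 (Psma6), with limma adjusted p from 0.212 to 0.692. At 24 weeks the 7 genes had differences from 0.046 (Psma1) to 0.15 (Psma7), with a median of 0.077, but 3 were above 0 after the further quantile normalisation (median -0.013) and 2 after cyclic loess (-0.0014), and without BALB/c replicate 1 the median was 0.037 with 5 above 0.

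**Figure D2:**
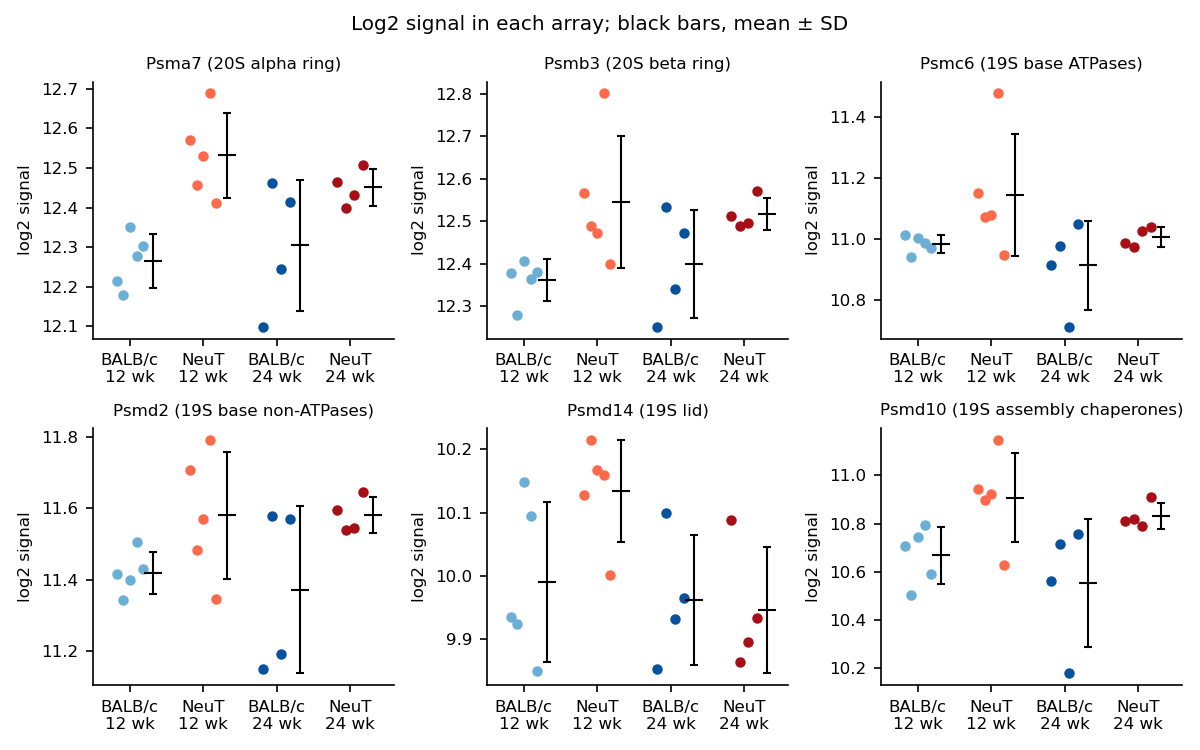
Log2 signal in each array (points) of 6 members, 1 per subcomplex, in the 4 groups, with the mean and SD of each group (black bars). In the Psma7 panel the 5 NeuT mice of 12 weeks lie between 12.41 and 12.69, above the 5 BALB/c mice, while in the other 5 panels the 12-week groups overlap.

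The beta ring, which carries the proteolytic sites, had no member past the threshold at either age. Its 6 measured genes all had differences above 0 at 12 weeks, with a median of 0.13. After either further normalisation 5 of 6 did (0.083 and 0.091), and with the neutrophil and B-cell covariates 4 did (0.085). At 24 weeks all 6 were above 0 with a median of 0.10. This median was 0.019 and 0.014 after the normalisations and 0.027, with 4 above 0, without BALB/c replicate 1. With the covariates it was 0.010, with 5 above 0. Psmb3, a structural beta subunit, had the smallest p of the ring. It read 12.38, 12.28, 12.41, 12.36 and 12.38 in BALB/c and 12.57, 12.49, 12.47, 12.80 and 12.40 in NeuT mice of 12 weeks. The groups overlapped in 1 mouse, NeuT replicate 5, and NeuT replicate 4 was the highest. The log2 difference was 0.18 (limma adjusted p = 0.159). At 24 weeks Psmb3 read 12.25, 12.53, 12.34 and 12.47 in BALB/c and 12.51, 12.49, 12.50 and 12.57 in NeuT mice, with a log2 difference of 0.12 (limma adjusted p = 0.577). The NeuT mice of 24 weeks lay within a narrow band inside the range of the BALB/c mice apart from the highest.

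The measured catalytic subunits of the ring are Psmb6, with caspase-like activity, and Psmb7, with trypsin-like activity. Psmb7 had a log2 difference of 0.17 at 12 weeks (limma adjusted p = 0.188) and 0.0012 at 24 weeks. Psmb6 had log2 differences of 0.072 and 0.15 at these ages, with limma adjusted p of 0.646 and 0.517. Neither passed at either age. Of the structural beta subunits Psmb1 and Psmb4 had log2 differences of 0.13 and 0.14 at 12 weeks, and Psmb4 did so without overlap of the groups. Psmb2 had 0.0046 at 12 weeks and 0.21 at 24 weeks (limma adjusted p = 0.325), the widest contrast between the ages in the ring, and the test of the change between ages gave 0.21 (95% interval -0.055 to 0.47, limma adjusted p = 0.828).

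The ATPases of the base, which unfold substrates and push them into the core, had a median log2 difference of 0.030 at 12 weeks and 0.016 at 24 weeks over 6 genes. Its sign turned with the scaling at both ages, to -0.0075 and -0.059 after the further quantile normalisation. It also turned with single mice, from -0.0046 without NeuT replicate 1 to 0.067 without NeuT replicate 5 at 12 weeks, and from -0.020 without BALB/c replicate 1 to 0.052 without BALB/c replicate 2 at 24 weeks. Psmc6 had the smallest p. It read 11.01, 10.94, 11.01, 10.99 and 10.97 in BALB/c and 11.15, 11.07, 11.08, 11.48 and 10.95 in NeuT mice of 12 weeks, and 10.92, 10.98, 10.71 and 11.05 in BALB/c and 10.99, 10.97, 11.03 and 11.04 in NeuT mice of 24 weeks. NeuT replicate 4 of 12 weeks stood above all other arrays and NeuT replicate 5 lay among the BALB/c mice. The log2 differences were 0.16 (limma adjusted p = 0.264) and 0.094 (adjusted p = 0.703). Psmc4 had 0.12 and -0.050, and the other 4 ATPases (Psmc1, Psmc2, Psmc3 and Psmc5) had between 0.0060 and 0.049 at 12 weeks and between -0.010 and 0.075 at 24 weeks. The highest 95% bound among the ATPases at 12 weeks was 0.33 (Psmc6, 1.26-fold).

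The non-ATPases of the base are Psmd1 and Psmd2, large scaffolds that bind shuttle factors, and Psmd4, a ubiquitin receptor. Their median was 0.018 at 12 weeks, and -0.029 after the further quantile normalisation, and 0.12 at 24 weeks, and 0.045 after it. Without 1 mouse the 12-week median ran from -0.0032 (without NeuT replicate 4) to 0.077 (without NeuT replicate 5). Psmd2 read 11.42, 11.34, 11.40, 11.51 and 11.43 in BALB/c and 11.71, 11.48, 11.57, 11.79 and 11.35 in NeuT mice of 12 weeks, and 11.15, 11.58, 11.19 and 11.57 in BALB/c and 11.59, 11.54, 11.55 and 11.65 in NeuT mice of 24 weeks. In the older BALB/c mice the 4 values formed a low pair (replicates 1 and 3) and a high pair (replicates 2 and 4), and the high pair overlapped the NeuT mice. The log2 differences were 0.16 at 12 weeks (limma adjusted p = 0.313) and 0.21 at 24 weeks (adjusted p = 0.383). Psmd4 had 0.0019 and 0.0036, with 95% intervals of -0.12 to 0.12 and -0.13 to 0.14, and Psmd1 had 0.018 and 0.12.

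The lid had 7 of 8 genes above 0 at 12 weeks, with a median log2 difference of 0.067, and 4 of 8 at 24 weeks, with a median of 0.0095, and after the further quantile normalisation the medians were 0.018 and -0.050. Without 1 mouse the 24-week median ran from -0.018 (without BALB/c replicate 3) to 0.049 (without BALB/c replicate 2). Psmd14, the enzyme of the lid that cleaves off the ubiquitin chain, read 9.93, 9.92, 10.15, 10.09 and 9.85 in BALB/c and 10.13, 10.21, 10.17, 10.16 and 10.002 in NeuT mice of 12 weeks. At 24 weeks it read 9.85, 10.10, 9.93 and 9.97 in BALB/c and 10.09, 9.86, 9.90 and 9.93 in NeuT mice. The groups overlapped at both ages. The log2 differences were 0.14 (limma adjusted p = 0.268) and -0.017 (adjusted p = 0.955). Psmd7, its partner in the same dimer, had 0.048 and -0.019.

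Psmd3, a scaffold subunit of the lid, went against the other members of its group at 12 weeks, with a log2 difference of -0.088 (limma adjusted p = 0.535). It read 12.12, 12.13, 12.16, 12.14 and 12.13 in the BALB/c mice and 12.19, 12.16, 12.12, 11.69 and 12.10 in the NeuT mice. A single array, NeuT replicate 4, was low, and the other 4 NeuT mice lay between 12.10 and 12.19, around the BALB/c values. That same array gave the highest of all 18 values for 19 of the 33 members, Psmb7 and Psmd5 among them. The other lid genes Psmd6, Psmd12 and Psmd13 had 0.15, 0.15 and 0.085 at 12 weeks, and Psmd8 and Psmd11 had 0.020 and 0.023, with limma adjusted p of 0.304 to 0.889.

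The chaperones Psmd5, Psmd9 and Psmd10 assist the assembly of the base and leave before the particle is complete, and they split in direction. Psmd10, also known as gankyrin, read 10.71, 10.51, 10.74, 10.79 and 10.59 in BALB/c and 10.94, 10.90, 10.92, 11.15 and 10.63 in NeuT mice of 12 weeks, and 10.56, 10.72, 10.18 and 10.76 in BALB/c and 10.81, 10.82, 10.79 and 10.91 in NeuT mice of 24 weeks. At 24 weeks all 4 NeuT mice were above all 4 BALB/c mice, by a margin that was small against the low value of BALB/c replicate 3. The log2 differences were 0.24 (limma adjusted p = 0.170) and 0.28 (adjusted p = 0.264). Psmd9 had -0.16 at 12 weeks (adjusted p = 0.205) and -0.032 at 24 weeks, and Psmd5 had 0.18 and 0.035. The median of the 3 was 0.18 at 12 weeks, and 0.13 after the further quantile normalisation, and 0.035 at 24 weeks, and -0.012 after it. Without NeuT replicate 4 the 12-week median was 0.11, and the 24-week median ran from -0.048 without BALB/c replicate 3 to 0.095 without BALB/c replicate 2. Psmd9 was the member with the lowest difference at 12 weeks, at percentile 12.9 of all genes, and Psma7 the one with the highest, at percentile 93.8.

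At 24 weeks 0 of 33 members were called (limma), against 1.4% of all genes in either direction. At an unadjusted p under 0.05, 2 members, Psmb2 and Psmd10, were higher (9.2% of all genes) and 0 were lower. The groups did not overlap for Psma5 and Psmd10, both higher in NeuT mice (4.95% of all genes). The median log2 difference of the members was 0.049, against -0.00014 over all genes and 0.061 over the 4510 genes in their signal range, of which 68.3% were above 0, so the members lay where genes of like signal lay. No member's 95% interval reached beyond -0.24 (Psmc4) or 0.51 (Psmd10, 1.42-fold). The direction at 24 weeks depended on the scaling: after a further quantile normalisation the median was -0.015 with 14 of 33 members above 0, after cyclic loess -0.017 with 11 above 0, and with array weights -0.0090 with 15 above 0. It also moved with single mice, from 0.0094 without BALB/c replicate 1 to 0.095 without BALB/c replicate 2. At 12 weeks the sign of the median held under the same scalings, at 0.077 and 0.076 with 23 of 33 above 0 after the normalisations and 0.093 with 28 above 0 with array weights, and without NeuT replicate 4 it was 0.077 with 28 above 0.

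The test of whether the NeuT effect differed between the ages called 0 of 33 members (limma, 0.0103% of all genes), and 0 at an unadjusted p under 0.05 (6.5% of all genes). The median of this difference was -0.045, with 12 of 33 members above 0, against 0.020 over all genes. By group it was -0.094 for the alpha ring, -0.055 for the beta ring, -0.026 for the ATPases, 0.048 for the non-ATPases of the base, -0.052 for the lid and 0.038 for the chaperones. The 95% intervals of the members ran from -0.42 (Psmc4) to 0.47 (Psmb2), and the median standard error of this difference was 0.11.

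Age itself was compared within each mouse model, using the same arrays as the comparisons above, so that these values are not independent of them. In BALB/c mice 0 of 33 members were called between 12 and 24 weeks (limma, 0.579% of all genes). At an unadjusted p under 0.05, Psmd9 was lower at 24 weeks (8.87% of all genes), with a log2 difference of -0.21 (limma adjusted p = 0.195), and 0 members were higher. The ages did not overlap for Psmd3, which was higher at 24 weeks (3.38% of all genes) with a log2 difference of 0.13. The median over the members was -0.022, with 16 of 33 above 0, and over all genes -0.018.

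In NeuT mice 0 of 33 members were called between the ages (limma, 0.0359% of all genes). At an unadjusted p under 0.05, Psmd3 was higher at 24 weeks (7.56% of all genes) and Psmb7 and Psmd14 were lower (5% of all genes). The ages did not overlap for Psmd3, higher (2.96% of all genes), nor for Psma6 and Psmb7, lower (2.12% of all genes). The log2 differences were 0.20 for Psmd3, -0.16 for Psmb7, -0.19 for Psmd14 and -0.11 for Psma6, with limma adjusted p of 0.287 to 0.545. The median over the members was -0.046, with 10 of 33 above 0, against -0.0031 over all genes.

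How the members varied from mouse to mouse was described over all arrays. For each array the mean deviation of the 33 members from their own 18-array means was taken. It averaged -0.036 ± 0.038 (SD, n = 5) in BALB/c and 0.059 ± 0.085 (n = 5) in NeuT mice of 12 weeks, and -0.047 ± 0.11 (n = 4) in BALB/c and 0.018 ± 0.029 (n = 4) in NeuT mice of 24 weeks. At both ages the groups overlapped. NeuT 12-week replicate 4 gave the highest of all 18 values for 19 of the 33 members, and NeuT 12-week replicate 5 had a mean deviation of -0.041, among the BALB/c mice. BALB/c 24-week replicate 1, the array with the lowest median signal, gave the lowest value for 18 members, and replicate 3 of that group for 8.

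The spread within groups also differed. At 24 weeks the SD was larger in BALB/c than in NeuT mice for 33 of 33 members, against 69.1% of the 4543 genes in their signal range, the members included. At 12 weeks it was larger in NeuT mice for 28 of 33 members, or 84.8%, against 78.7% of those genes. The median SD over the members was 0.060 for the younger BALB/c mice, 0.13 for the younger NeuT mice, 0.13 for the older BALB/c mice and 0.050 for the older NeuT mice. These shares describe a difference between arrays, and no test was made of them.

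**Figure D3:**
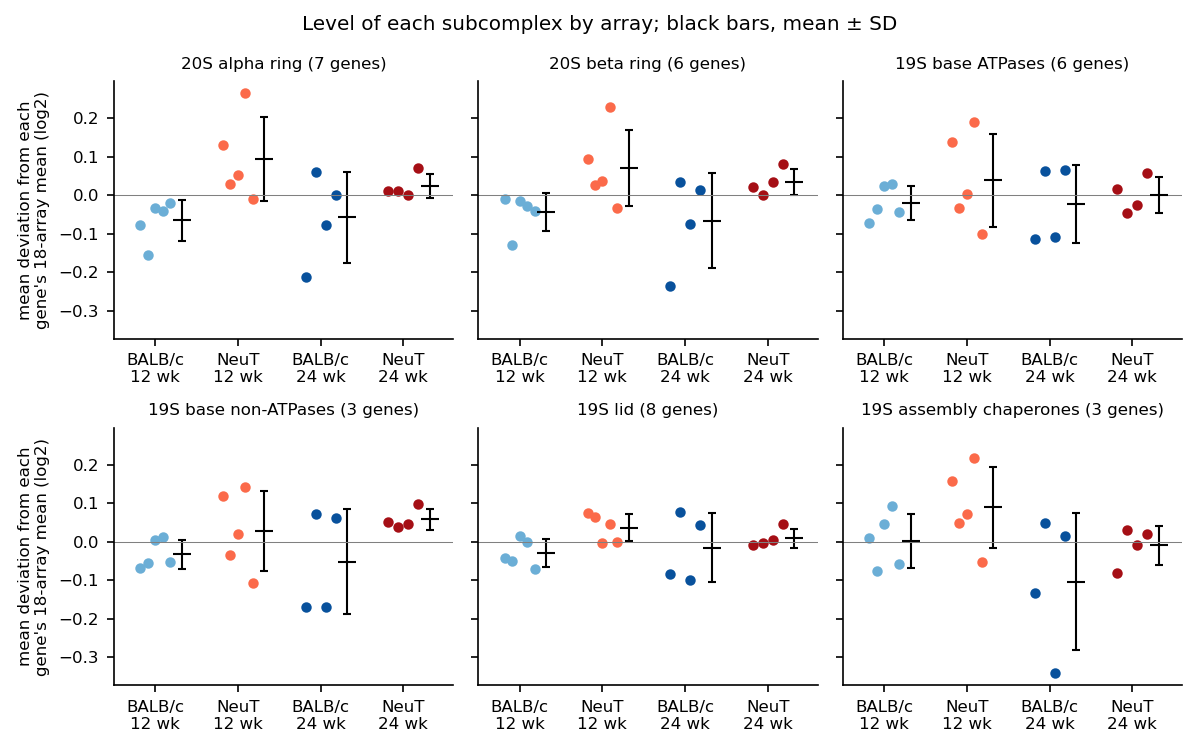
Mean deviation of the members of each subcomplex from each gene's mean over all 18 arrays (log2), per array (points) and as the mean and SD of the 4 groups (black bars). The NeuT 12-week replicate 4 point is the highest of all in the alpha ring, beta ring, ATPase and chaperone panels, and the 4 BALB/c mice of 24 weeks spread more than the 4 NeuT mice in each panel.

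Blood cell markers moved with the same comparisons. Of all genes 3.15% were called higher and 0.687% lower in NeuT mice at 12 weeks (limma). At 24 weeks these shares were 1.18% and 0.22%. At 12 weeks 5 of 12 neutrophil markers were called higher in NeuT mice (limma adjusted p under 0.05), with a median log2 difference of 0.61, and their mean log2 signal ranged from 10.21 to 10.82 over the BALB/c and from 10.37 to 11.73 over the NeuT arrays. At 24 weeks 6 of 12 were called higher, with a median of 0.82 and ranges of 10.17 to 10.70 and 10.69 to 11.65. Of 9 B-cell markers 0 were called at 12 weeks (median -0.53, mean log2 signal 10.92 to 11.13 in BALB/c and 9.62 to 10.97 in NeuT mice) and 1 was called lower at 24 weeks (median -0.84, 10.997 to 11.27 and 9.89 to 10.97). Of 8 monocyte and macrophage markers 4 were called higher and 1 lower at 12 weeks and 0 at 24 weeks. Of 7 T and NK cell markers Nkg7 was called higher at both ages and Cd3e, Cd2 and Gzma lower at 24 weeks, with list medians of -0.13 and -0.58. Their mean log2 signal ranged from 8.82 to 9.01 in BALB/c and 8.55 to 9.10 in NeuT mice of 12 weeks, and from 8.77 to 9.27 and 8.50 to 8.79 at 24 weeks. Of 5 neutrophil precursor markers Ms4a3 was called higher at 12 weeks and 0 were called at 24 weeks, with list medians of 0.21 and 0.26. Of 9 stromal markers 0 were called at 12 weeks (median -0.083, 2 above 0 and 7 below). At 24 weeks the stromal marker Vcam1 was called higher (list median 0.21, 6 above 0 and 3 below). Of 5 erythroid markers 0 were called, with medians of -0.23 and -0.28, and of 9 proliferation genes 0 were called at either age. With the neutrophil and B-cell means as covariates the member medians were 0.058 at 12 weeks, with 23 of 33 above 0, and 0.0017 at 24 weeks, with 19 above 0. Psma7 then had a log2 difference of 0.18 at 12 weeks (limma adjusted p = 0.659), in a fit that called 4 genes in all. The part of the cell mixture in the members' values was not tested further.

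Other genes of the pathway were taken from lists chosen with earlier results of these data known, and 35 of 46 were measured. At 12 weeks 6 of 35 were called higher in NeuT mice (limma, 3.15% of all genes) and 0 lower. At 24 weeks 0 of 35 were called, with 2 higher (Sem1 and Psmb9, 9.2% of all genes) and 0 lower at an unadjusted p under 0.05. Of the 3 immunoproteasome subunits 3 rose at 12 weeks: Psmb8 by 0.42 on the log2 scale (adjusted p = 0.00564), Psmb9 by 0.42 (0.0151) and Psmb10 by 0.32 (0.0321). Between the ages in BALB/c mice these 3 subunits rose by 0.21 to 0.29 on the log2 scale, and 0 were called (limma). The ages did not overlap for any of the 3 (3.38% of all genes). Psma8, the form of Psma7 known from the testis, rose by 0.53 in NeuT mice at 12 weeks (adjusted p = 0.0127) with a mean log2 signal of 7.94, near the median of the negative controls. Its mean was 7.59 in BALB/c and 8.12 in NeuT mice of 12 weeks, and 8.02 and 8.06 at 24 weeks. Of 5 proteasome-bound enzymes 2 rose in NeuT mice at 12 weeks, the deubiquitinase Uchl5 by 0.34 (0.0314) and the ubiquitin ligase Ube3a by 0.29 (0.0268).

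These calls differed in how they held. Psmb8 kept its call in 10 of the 10 fits without 1 mouse, Psma8 and Psmb9 each in 9 (both lost it without BALB/c replicate 2, at adjusted p of 0.0520 and 0.0512), Ube3a in 6, Psmb10 in 4 and Uchl5 in 3. With the neutrophil and B-cell covariates, in the fit that called 4 genes in all, 0 of the 6 kept it. The log2 differences there were 0.44 for Psma8, 0.32 for Psmb8, 0.31 for Psmb9, 0.35 for Ube3a, 0.17 for Psmb10 and 0.13 for Uchl5. After the further quantile normalisation Psmb10 and Uchl5 lost it, at adjusted p of 0.0696 and 0.0543. Over 11 alternatives, these fits among them, the result was weaker in 5 for Psmb10 and 4 for Uchl5. It was weaker in 2 each for Psmb9 and Ube3a, and in 1 each for Psma8 and Psmb8.

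In the lists without a call the gene with the smallest p at 12 weeks was Psmg2, a chaperone of core assembly, with a log2 difference of 0.40 (adjusted p = 0.0758), Psme2, a subunit of the interferon-inducible activator, with 0.28 (0.0532), and Uba6, a ubiquitin-activating enzyme, with 0.28 (0.245). Sem1, the small subunit of the lid, had 0.11 (0.397), Nploc4, a cofactor of the unfoldase Vcp, -0.13 (0.413) and Hsf2, a heat shock factor, 0.086 (0.625). Outside the rule for naming genes, and chosen after their values were seen, Nfe2l1 had -0.075 at 12 weeks and 0.078 at 24 weeks, and Nfe2l2 -0.037 and 0.047, with limma adjusted p of 0.661 to 0.853. At 12 weeks the median log2 difference was 0.42 for the immunoproteasome subunits, 0.25 for the tissue-specific core subunits, 0.19 for the core assembly factors, 0.15 for the alpha ring and -0.042 for the transcriptional regulators. At 24 weeks the medians of these lists were 0.17, -0.011, 0.097, 0.077 and 0.071.

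**Figure D4:**
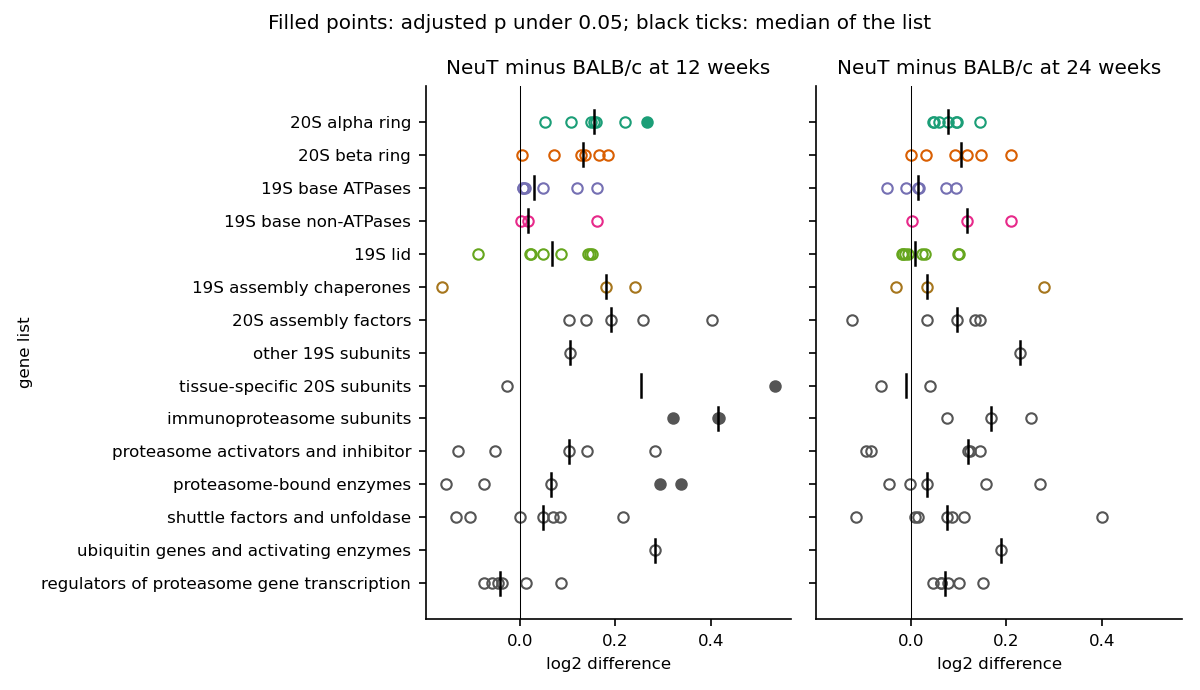
Log2 difference between NeuT and BALB/c mice of each gene (points) by gene list at 12 weeks (left) and 24 weeks (right), with filled points for limma adjusted p under 0.05 and black ticks for the list's median. At 12 weeks the 7 filled points are Psma7, Psma8, Psmb8, Psmb9, Psmb10, Uchl5 and Ube3a, and at 24 weeks no point is filled.

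The RNA balance of catalytic subunits was taken as the log2 signal of an immunoproteasome subunit minus that of its constitutive counterpart in the same array. Exchange of the subunits in the particle concerns protein and was not measured. The part of the cell mixture in these differences was not tested. The 2 signals come from different probe sets, so only changes of this difference between groups are read. Psmb9 minus Psmb6 was -0.70, -0.71, -0.71, -0.57 and -0.68 in the 5 BALB/c mice and -0.51, -0.37, -0.32, -0.12 and -0.33 in the 5 NeuT mice of 12 weeks. Every NeuT mouse was above every BALB/c mouse. The group means were -0.68 ± 0.060 (SD, n = 5) and -0.33 ± 0.14 (n = 5), and they differed by 0.34, a 1.27-fold shift (two-sided exact permutation p = 0.00794, the smallest that 252 arrangements of the mice can give, adjusted p = 0.0317 over 4 tests). At this age the mean log2 signal of Psmb9 was 11.42 in BALB/c and 11.84 in NeuT mice, and that of Psmb6 was 12.09 and 12.17. The pair was chosen after the rise of Psmb9 was seen in these arrays. This p is therefore not independent of that rise, and its adjustment does not cover the choice. Without 1 mouse of this age the difference was 0.29 to 0.39. The adjusted p (exact permutation) was 0.0635 without any 1 of the BALB/c mice and 0.0317 without any 1 of the NeuT mice. There 2 and 1 of 126 arrangements, respectively, reached the observed difference. The few arrangements thus limit these p, and they say nothing of stability.

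At 24 weeks Psmb9 minus Psmb6 was -0.21, -0.46, -0.43 and -0.39 in BALB/c and -0.22, -0.22, -0.38 and -0.25 in NeuT mice, and these groups overlapped. The difference was 0.10 (two-sided exact permutation p = 0.2, adjusted p = 0.267, with 0.0286 the smallest p that 4 against 4 mice allow). Psmb10 minus Psmb7 differed by 0.15 at 12 weeks (exact permutation p = 0.103, adjusted p = 0.206) and by 0.074 at 24 weeks (exact permutation p = 0.514, adjusted p = 0.514). These pairs were chosen after the values of the immunoproteasome subunits were seen, and whether the shift at 12 weeks differs from that at 24 weeks was not tested. The counterpart of Psmb8, Psmb5, was not analysed.

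**Figure D5:**
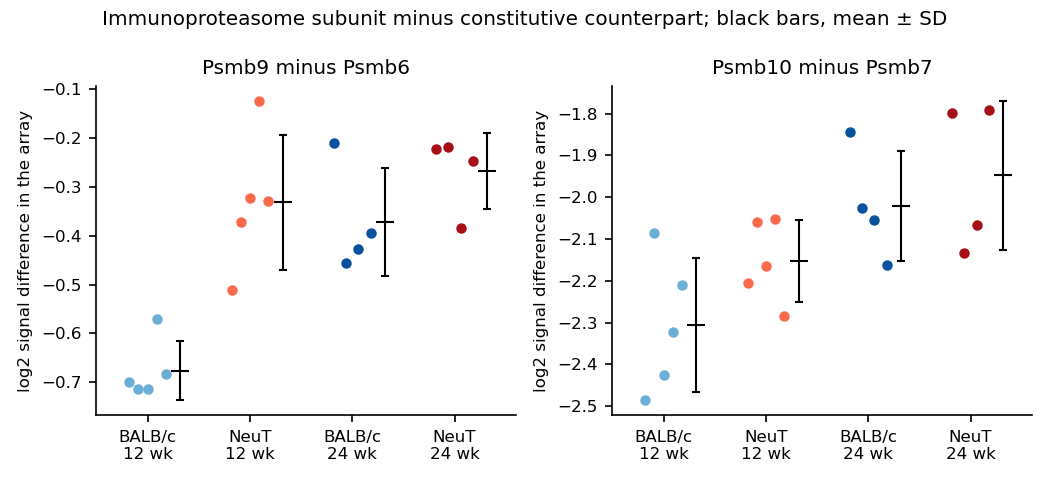
Within-array log2 signal difference of Psmb9 minus Psmb6 (left) and Psmb10 minus Psmb7 (right) per array (points) in the 4 groups, with mean and SD (black bars). In the left panel the 5 NeuT mice of 12 weeks lie between -0.51 and -0.12, above the 5 BALB/c mice between -0.71 and -0.57, and in the other comparisons the groups overlap.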

How the data were processed

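Total RNA of 18 mice was hybridised to 1 array each, after bead purification of marrow cells and extraction with a miRNeasy kit, per the labels' protocols. The deposited values are log2 signals per probe set, and the submitters' processing notes name RMA, which corrects background, equalises the arrays' distributions and sums up probes, together with the Transcriptome Analysis Console. For versions and build, nothing is given in the sources used here. Of 29129 probe sets, 19572 had 1 gene symbol, and for 55 symbols with several only the probe set of highest mean entered, giving 19505 genes. Low signals were not filtered. The number of arrays limits the precision.

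Group means were fitted for all genes with limma 3.58.1 in R 4.3.3 (14 residual and 8.68 prior degrees of freedom), with two-sided tests and Benjamini-Hochberg adjustment over all genes at 0.05. Members and gene lists were chosen with earlier results of these data known. Values in every array are given for members past the threshold and otherwise for the member of each subcomplex with the smallest p at 12 weeks, with further members added after their values were seen. Of the other lists, up to 4 genes past the threshold are named, or else the 1 with the smallest p at 12 weeks. Within-array differences were compared by exact permutation over mice. Alternatives were other normalisations, a filter on low signals, the mean of probe sets, trended robust variances, array weights, separate fits of each pair of groups, marker covariates and leaving out each array in turn. Promoter windows are those of RefSeq (GRCm38.p6). Figures used matplotlib 3.10.9 (Python 3.11.15).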

Additional observations from a re-analysis of the deposited data

Results flagged for a closer look

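A value was singled out where the highest or lowest array of a group lay far from the others by Dixon's criterion, which chance meets in about 1 in 20 groups. Among 132 groups of member values 7 met it. In NeuT 12-week replicate 4, Psmb7 (12.55) and Psmd5 (10.55) stood above and Psmd3 (11.69) below the other 4 mice. In NeuT 12-week replicate 3, Psmd11 (10.71) was low. In BALB/c 24-week replicate 1, Psma5 (12.77) and Psmb4 (12.51) were low. In NeuT 24-week replicate 2, Psma3 (12.68) was low, within a group whose SD was 0.014. The mean deviation of all 33 members was high in NeuT 24-week replicate 4 (0.062). The cause of these values was not tested.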

How the results depend on the processing

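At 12 weeks 1 member was called, and 2 (Psma3 and Psma7) with trended robust variances. It was 0 with the neutrophil and B-cell covariates, 0 without the 3 least correlated arrays and 0 with a proliferation covariate, the last 2 chosen after seeing the data, and 0 to 1 over the fits without 1 mouse. The cause was not tested. The other 7 alternatives gave 1. For the other 4 contrasts it was 0 in all alternatives and all fits without 1 mouse. Psma7 had a log2 difference of 0.18 to 0.29 over 11 alternatives. The member median between the ages in BALB/c mice was 0.054 with the proliferation covariate, against -0.022. Without 1 mouse the medians ranged from 0.077 to 0.14 (12 weeks), 0.0094 to 0.095 (24 weeks), -0.067 to -0.0010 (difference of effects), -0.056 to 0.042 (age, BALB/c) and -0.075 to -0.018 (age, NeuT). Without 1 mouse, Psmb9 minus Psmb6 differed by 0.29 to 0.39 at 12 weeks and 0.076 to 0.16 at 24 weeks, and Psmb10 minus Psmb7 by 0.11 to 0.21 and 0.022 to 0.14. No paired analysis was made, because each array came from a different mouse and the labels name no pairs of mice. The replicate numbers used here do not pair mice across groups. With 4 or 5 mice a group, the median standard error of a member's NeuT difference was 0.074 at 12 weeks and 0.083 at 24 weeks (log2).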
